A study of Mus musculus with 3 samples.

Results

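The stress and immediate-early response genes Atf3, Btg2, Nr4a2, Cebpb, Ier5, Nfe2l2, Txnip and Mcl1 were examined in single cells of the mouse mitral valve. They were chosen by name, and they make up 8 of the 3264 genes for which the matrix holds a value in every cell. The 16383 cells were sorted by their own transcripts. Fibroblasts, 3149 in number, held at least 1 unique molecular identifier (UMI, the tag that marks a single captured transcript) of at least 2 of Prrx1, Col3a1 and Dpt and none of Egfl7. Endothelial cells, 8966 in number, held Egfl7 and fewer than 2 of these fibroblast genes. Ptprc cells, 470 in number, held Ptprc, the gene of the leukocyte surface protein CD45, without Egfl7 and with fewer than 2 of the fibroblast genes. Another 421 cells held at least 2 fibroblast genes together with Egfl7, and 3377 cells met none of these rules.

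The 3 samples of the series form a single group, labelled mgR. They are mitral valves of mgR/mgR mice of strain B6.129-Fbn1tm2Rmz/J, which the study examined at 12 weeks of age, and in which a neomycin cassette inserted into Fbn1 lowers fibrillin-1. The study set such mice against wild-type littermates, and its single-nucleus experiment also included mgR mice given the mTOR inhibitor rapamycin. The matrix pools the libraries, and its barcodes name neither mouse, genotype nor treatment. It was therefore treated as 1 sample, with no test and no spread between mice. Cells had 503 to 23127 UMIs over all genes (median 5349), and a median of 15.7% of them fell on the listed genes, which lie on chromosomes 1, 2 and 3. The barcodes stand in 2 alphabetical runs of 14222 and 2161 cells with medians of 5154 and 6918 UMIs. The labels do not say what the runs are, and 11 barcodes occur in both. Levels are UMIs of a gene summed over cells per 10000 UMIs of these cells, and the ranges in brackets are 95% exact intervals, which cover counting error only. Since transcripts were counted from their 3′ ends, levels are compared between cells and not between genes.

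Immediate-early genes are switched on within minutes of a stimulus from factors already present in the cell, with no need for new protein, and their transcripts are short-lived. Atf3, Nr4a2 and Cebpb encode transcription factors of this kind or of the stress response. Btg2 encodes an antiproliferative protein that hastens mRNA decay, and Ier5 a nuclear protein that acts on heat shock factor signalling. Nfe2l2 encodes NRF2, which turns on antioxidant genes once it is released from KEAP1. Txnip encodes the inhibitor of thioredoxin, and Mcl1 a short-lived protein of the BCL2 family that holds back apoptosis. In valves, endothelial cells cover the leaflet surface and fibroblasts, often called interstitial cells, fill its core.

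In the GENCODE M21 annotation of GRCm38, Atf3 lies at chr1:191170296-191218039 on the minus strand, Btg2 at chr1:134075170-134079120 (minus), Nr4a2 at chr2:57106830-57124003 (minus) and Cebpb at chr2:167688915-167690418 (plus). Ier5 lies at chr1:155096361-155099636 (minus), Nfe2l2 at chr2:75675513-75704641 (minus), Txnip at chr3:96557957-96561883 (plus) and Mcl1 at chr3:95658788-95663176 (plus). Annotated genes overlap Atf3, Cebpb and Txnip on the opposite strand and Nfe2l2 on the same strand.

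Many immediate-early promoters carry the cAMP response element (CRE), the binding motif of CREB and ATF proteins. The 250 bases before the RefSeq transcript start (GRCm38.p6) were searched on both strands for its core, TGACG or CGTCA on the other strand. It was found in 4 of the 8 genes, Atf3, Btg2, Nr4a2 and Cebpb, and in 17.8% of 32851 windows of the same length over all genes. These windows are shown because they carry the core, which stands in capitals. They cover chr1:191183334-191183583 for Atf3 and chr1:134079156-134079405 for Btg2 (both minus strand), chr2:57124004-57124253 for Nr4a2 (minus) and chr2:167688665-167688914 for Cebpb (plus), and are written 5′ to 3′ on the strand of the gene.
Atf3: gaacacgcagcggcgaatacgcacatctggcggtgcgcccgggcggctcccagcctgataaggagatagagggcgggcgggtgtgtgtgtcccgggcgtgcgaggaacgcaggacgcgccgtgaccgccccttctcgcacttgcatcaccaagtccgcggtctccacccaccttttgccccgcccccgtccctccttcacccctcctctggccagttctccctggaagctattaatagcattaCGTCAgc
Btg2: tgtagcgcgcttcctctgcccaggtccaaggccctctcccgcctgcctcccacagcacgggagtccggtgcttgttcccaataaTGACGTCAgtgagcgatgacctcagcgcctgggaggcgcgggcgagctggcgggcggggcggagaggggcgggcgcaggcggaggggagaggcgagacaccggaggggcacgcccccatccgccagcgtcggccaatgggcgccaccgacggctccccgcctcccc
Nr4a2: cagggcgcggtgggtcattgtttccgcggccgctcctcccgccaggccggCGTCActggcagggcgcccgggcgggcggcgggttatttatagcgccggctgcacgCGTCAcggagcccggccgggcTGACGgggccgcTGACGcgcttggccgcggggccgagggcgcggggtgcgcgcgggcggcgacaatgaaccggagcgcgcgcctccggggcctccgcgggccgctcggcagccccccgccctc
Cebpb: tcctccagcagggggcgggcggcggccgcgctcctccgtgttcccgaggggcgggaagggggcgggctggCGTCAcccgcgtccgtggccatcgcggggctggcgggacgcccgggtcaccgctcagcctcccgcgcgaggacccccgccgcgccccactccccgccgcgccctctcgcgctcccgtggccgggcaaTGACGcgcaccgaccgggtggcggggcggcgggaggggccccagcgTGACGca

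The Atf3 window held 1 core, 7 to 3 bases before the start. In Btg2 the 2 cores overlapped in the full element TGACGTCA, 166 to 159 bases before the start, which 1.55% of all windows hold and which contains the core on each strand. The Nr4a2 window held 4 cores and the Cebpb window 3, the last of them 7 to 3 bases before the start. The core was not in the windows of Ier5, Nfe2l2, Txnip and Mcl1. The CCAAT box (CCAAT or ATTGG) was in those of Btg2, Ier5 and Txnip and in 33.8% of all windows. For the TATA box only the exact string TATAAA or TTTATA was searched. It was in 12.4% of all windows and in that of Nr4a2, on the minus strand relative to the gene, 164 to 159 bases before the start. Other forms were not counted, among them TATATAA, which stands in the windows of Ier5 and Txnip. The E box CACGTG (6.02% of all windows) and the AP-1 site TGACTCA or TGAGTCA (4.46%) were in none of the 8. A match describes these letters only and is no evidence of a factor at the site.

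**Figure D1:**
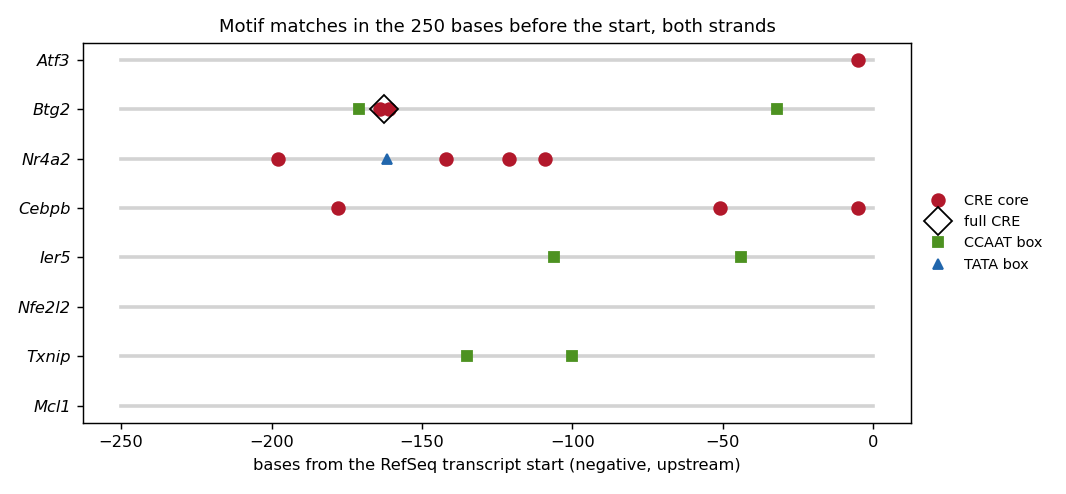
Motif matches in the 250 bases before the RefSeq start of each gene, on either strand, with the distance from the start in bases on the horizontal axis. Red circles mark the CRE core, found in the upper 4 genes only, and the open diamond the full element in Btg2. Green squares mark the CCAAT box and the blue triangle the TATA box in the exact form TATAAA or TTTATA.

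The cell groups were checked against markers that had not been used to sort the cells. Fibroblasts had the 6 remaining fibroblast markers, among them Col6a3, Fbn1 and Prg4, at a summed level of 38.4, against 9.26 in endothelial cells and 3.22 in Ptprc cells. Endothelial cells had the 7 remaining endothelial markers, among them Eng, Thbd and Prox1, at 20.4, against 2.23 in fibroblasts and 2.05 in Ptprc cells. Ptprc cells had the 8 leukocyte markers other than Ptprc, among them Fcer1g, Ctss and Cd84, at 31.5, against 0.871 in fibroblasts and 0.484 in endothelial cells. Ptprc itself was found in 74 of the fibroblasts and 163 of the endothelial cells. Median UMIs were 6063 in fibroblasts, 5365.5 in endothelial cells and 4851 in Ptprc cells. The cells that met no rule had a median of 4335 UMIs and came mostly from clusters of fibroblasts and of Egfl7 cells, 1305 of them from cluster 1 and 972 from cluster 3.

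All 8 genes passed the minimum of 50 UMIs over the groups compared. Fibroblasts had the lowest level of 7 of the 8 genes among the 3 groups, the exception being Nr4a2, which was lowest in Ptprc cells. For Cebpb the intervals of fibroblasts and endothelial cells overlapped. Endothelial cells exceeded fibroblasts by at least 1.5 times for Atf3, Btg2, Ier5, Txnip and Mcl1, or 5 of 8, while 22.2% of the 2605 genes compared did so. No member was lower by that factor, against 26% of genes. The median log2 ratio of endothelial cells over fibroblasts was 1.30 over the 8 genes and -0.05 over all genes. The 10 listed ribosomal protein genes moved in the same direction, at a summed 1.81 in fibroblasts, 5.43 in endothelial cells and 3.495 in Ptprc cells. So did the 3 cardiomyocyte markers in the matrix, at 0.103, 1.11 and 0.251. Of these, Ttn made up 1.07 in endothelial cells, whereas Tnnt2 was at 0.0327 there and 0.0383 in fibroblasts. The part of either list in the differences was not tested. Ptprc cells exceeded fibroblasts by 1.5 times for 7 of 8, all but Nr4a2, against 25.9% of 2313 genes, and for none was the level lower by this factor, against 31% of genes. Ptprc cells exceeded endothelial cells for Btg2, Cebpb and Nfe2l2 only, 3 of 8, against 25.9% of 2476 genes, with none lower, against 28.9%. That none was lower held for the pooled runs and not within them, since Nr4a2 and Ier5 were lower by this factor in the first run and Atf3 in the second. The first 2 of these counts, 5 of 8 and 7 of 8, lie well above the share over all genes, and the last, 3 of 8, lies close to it for so few genes.

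**Figure D2:**
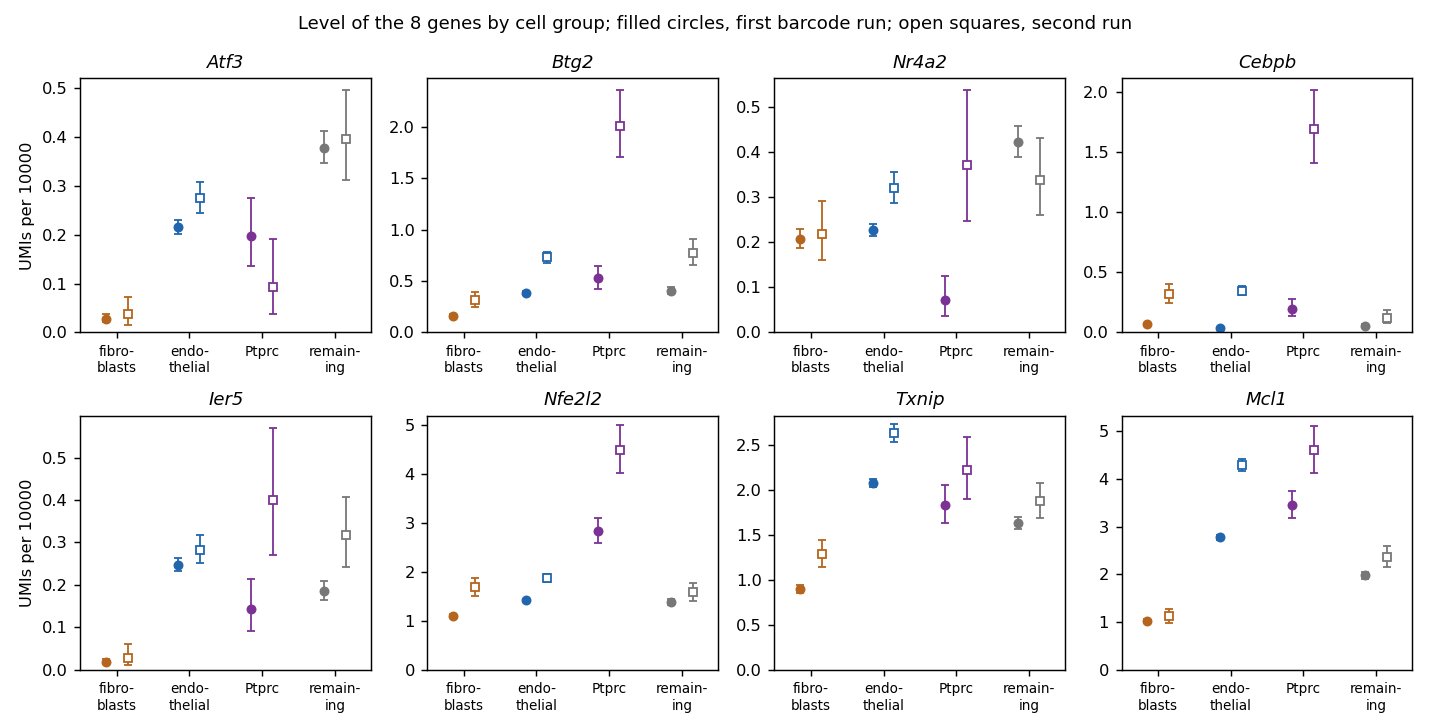
Levels of the 8 genes (UMIs per 10000, vertical axes starting at 0, a separate scale for each gene) in fibroblasts, endothelial cells, Ptprc cells and remaining cells, in the first barcode run (filled circles) and the second (open squares), with 95% exact Poisson bars. Atf3, Ier5 and Mcl1 are lowest in fibroblasts in both runs, though the bars of Atf3 in fibroblasts and Ptprc cells overlap in the second, and Cebpb stands higher in the second run in every group.

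Among the transcription factors, Atf3, which is induced by many kinds of stress, was at 0.0292 UMIs per 10000 in fibroblasts (0.0223 to 0.0375), at 0.227 in endothelial cells (0.215 to 0.240) and at 0.165 in Ptprc cells (0.118 to 0.224). The fibroblast interval lies below both others. Endothelial cells stood 7.78 times above fibroblasts (6.02 to 10.2), by 7.63 times in the first run and 7.37 in the second. Without the cells that held at least 4 UMIs of Atf3, Btg2, Nr4a2 or Cebpb, which are described further on, the ratio was 4.96. The cells that met no rule were higher still, at 0.381. The share of cells with an Atf3 UMI, with each cell thinned to 2000 UMIs, was 0.687% of fibroblasts, 2.83% of endothelial cells and 4.57% of Ptprc cells. By this share Ptprc cells came above endothelial cells, while by level they were lower, at a ratio of 0.725 (0.516 to 0.994), which was 1.13 without those cells and 0.339 in the second run. Ptprc cells exceeded fibroblasts in Atf3 by 5.64 times, and by 2.50 times in the second run, from 7 UMIs in Ptprc cells and 8 in fibroblasts.

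Nr4a2, an orphan nuclear receptor induced early after many signals, differed least between fibroblasts and endothelial cells apart from Cebpb, at 0.209 (0.190 to 0.230) and 0.245 (0.232 to 0.259). Ptprc cells had it at 0.165 (0.118 to 0.224), and the interval overlaps that of fibroblasts. The ratio of Ptprc cells to endothelial cells was 0.672, close to the threshold, at 0.315 in the first run and 1.16 in the second. The order depended on the run. In the first run Ptprc cells were at 0.0715 and fibroblasts at 0.208, a ratio of 0.343. In the second run Ptprc cells were at 0.373 and fibroblasts at 0.219, a ratio of 1.70, from 28 UMIs in Ptprc cells.

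Cebpb, the basic leucine zipper factor of inflammatory and myeloid genes, was highest in Ptprc cells, at 0.659 (0.561 to 0.769), which is 7.21 times the level in fibroblasts and 7.02 times that in endothelial cells. Without the cells of at least 4 UMIs these ratios were 3.34 and 4.06. Within the runs both ratios were below the pooled ones. Ptprc cells were at 0.197 against 0.0656 in fibroblasts in the first run, and exceeded fibroblasts by 5.33 times in the second. Over endothelial cells the ratios were 5.88 and 4.89. Cebpb was at 0.0914 in fibroblasts (0.0789 to 0.105) and 0.0939 in endothelial cells (0.0859 to 0.103), whose ratio was 1.03 (0.868 to 1.22). The ratio differed between the runs. In the first run endothelial cells were at 0.0334 and fibroblasts at 0.0656, a ratio of 0.510, and in the second they were at 0.346 and 0.317, a ratio of 1.09. The thinned share with a Cebpb UMI was 9.38% of Ptprc cells, 2.03% of fibroblasts and 1.37% of endothelial cells.

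Btg2 was at 0.174 in fibroblasts (0.157 to 0.193), 0.452 in endothelial cells (0.434 to 0.470) and 0.984 in Ptprc cells (0.863 to 1.12), and the 3 intervals do not overlap. Ptprc cells exceeded endothelial cells by 1.36 times in the first run and 2.76 times in the second, and fibroblasts by 3.31 and 6.44 times. Ier5 had the widest gap of the 8 genes between endothelial cells and fibroblasts. Its 41 UMIs in 3149 fibroblasts gave 0.0196 (0.0141 to 0.0266), against 0.255 in endothelial cells (0.241 to 0.268) and 0.222 in Ptprc cells (0.167 to 0.290). The endothelial ratio was 13.0 (9.52 to 18.2), at 13.3 in the first run and 10.1 in the second. Thinned to 2000 UMIs, 0.196% of fibroblasts held an Ier5 UMI, against 4.39% of endothelial cells and 5.05% of Ptprc cells. Between endothelial and Ptprc cells the Ier5 order turned with the run, at Ptprc over endothelial ratios of 0.577 and 1.41.

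The remaining 3 genes were found in far more cells. Nfe2l2 was at 1.16 in fibroblasts (1.11 to 1.20), 1.51 in endothelial cells (1.47 to 1.54) and 3.35 in Ptprc cells (3.13 to 3.59). Endothelial cells thus exceeded fibroblasts by 1.30 times (1.24 to 1.36), short of 1.5 times, and Ptprc cells exceeded endothelial cells by 2.23 times. Txnip was at 0.937 in fibroblasts (0.896 to 0.979), 2.19 in endothelial cells (2.15 to 2.23) and 1.96 in Ptprc cells (1.78 to 2.14), with the last 2 within 1.5 times of each other. Mcl1 was at 1.03 (0.986 to 1.07), 3.07 (3.03 to 3.12) and 3.81 (3.57 to 4.07) in these groups. It was the gene of the set found in most cells, in 18.8% of fibroblasts, 42.6% of endothelial cells and 48.1% of Ptprc cells after thinning. Endothelial cells exceeded fibroblasts in Mcl1 by 2.73 times in the first run and 3.84 times in the second.

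No member was at least 1.5 times higher in fibroblasts than in both other groups, against 17.8% of 2653 genes, and none was so in endothelial cells, against 11.6%. Ptprc cells stood 1.5 times above both for Btg2, Cebpb and Nfe2l2, against 18.2% of genes. In the cells with both fibroblast genes and Egfl7, which had a median of 8709 UMIs, 7 of the 8 members lay between their levels in fibroblasts and in endothelial cells. Cebpb, at 0.107 (0.0762 to 0.147), was the exception, with an interval that overlaps those of both groups.

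Clustering, for which the members and the other listed stress genes were kept out of the variable genes, gave 11 clusters. Clusters 1 (4089 cells, led by Prg4 and Erbb4) and 2 (969 cells, led by Scn7a) carried the fibroblast genes. Clusters 3 (2955 cells, Tmem163 and Xirp2), 4 (3080 cells, Kif26b, Ptprt and Prox1), 7 (2287 cells, Fmo2, Frmd5 and Selp) and 8 (1512 cells, Kcnh1 and Tgfb2) carried Egfl7, and in cluster 7 Col3a1 was also found in 44.5% of cells. Cluster 6 (661 cells) carried Egfl7 in 80.8% of its cells and was led by Ptma, S100a6, ribosomal protein genes and Vim. Cluster 10 (613 cells) was led by Arhgap15, Ptprc and Mrc1, and cluster 9 (114 cells) by Pax3, with the pigment cell gene Mlph among its leading genes. A further 63 cells formed a cluster of mitotic genes and 40 cells a cluster with a median of 748 UMIs.

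Cluster 6 had all 8 members at least 1.5 times above the sum of clusters 3, 4, 7 and 8, while 21.9% of 2381 genes were higher by this factor, and none lower, against 29.4% of genes. The median log2 ratio was 1.37 for the members and -0.20 for all genes. Atf3 was at 1.05 in cluster 6 and 0.208 in the other 4 clusters, a ratio of 5.05 (4.57 to 5.57). Cebpb was 4.17 times higher, Ier5 3.73 times, Btg2 2.72 times, Txnip 2.46 times, Nr4a2 1.94 times, Nfe2l2 1.88 times and Mcl1 1.56 times. These are ratios over pooled runs, and their order was another within each run.

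**Figure D3:**
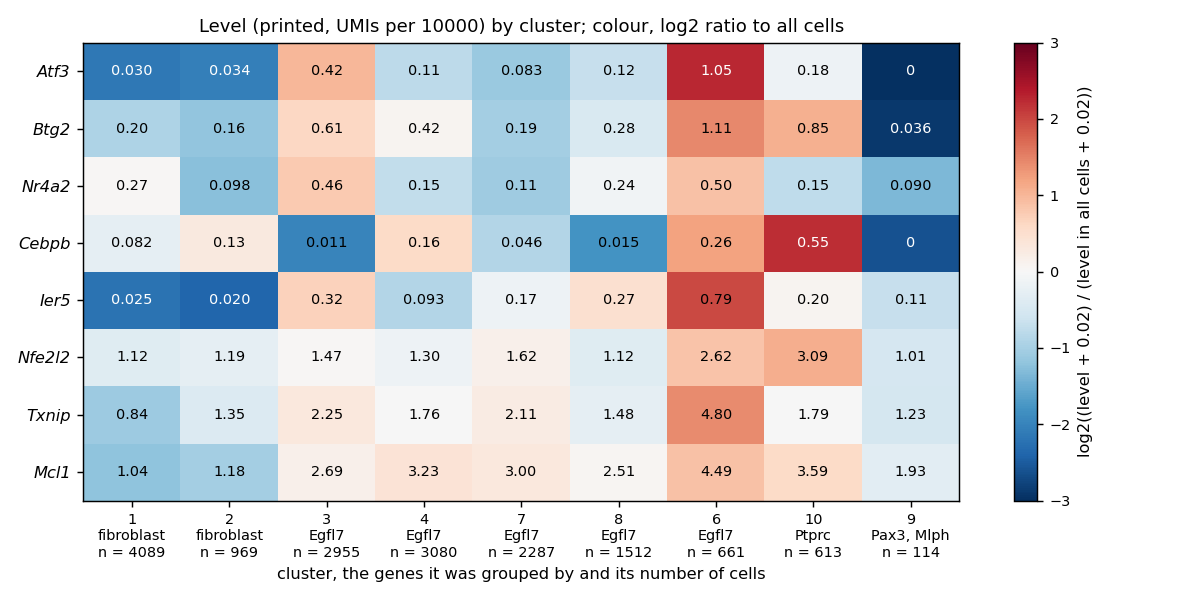
Level of each gene (printed, UMIs per 10000) in 9 of the 11 clusters, with colour for the log2 ratio to all cells, red for higher and blue for lower. Cluster 6 is red in every row, the fibroblast clusters 1 and 2 are blue for Atf3, Ier5, Txnip and Mcl1, and cluster 10 is reddest for Cebpb.

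Cluster 6 cells were deeper, with a median of 9057 UMIs against 4710.5 to 5553 in clusters 3, 4, 7 and 8. Among cells of at least 5000 but under 10000 UMIs alone, all 8 ratios were above 1.5, from 1.67 for Mcl1 to 4.72 for Cebpb, with Atf3 at 3.69 (3.13 to 4.34). Within the runs, Atf3 was 6.62 times higher in the first and 2.21 times in the second. Mcl1 was under 1.5 times in the first run, at 1.21, and Nfe2l2 in the second, at 1.31. Cebpb was at 0.0310 and 0.0281 in the first run, a ratio of 1.10 (0.555 to 1.99), and at 0.682 and 0.234 in the second, a ratio of 2.91. The 10 listed ribosomal protein genes were at a summed 26.2 in cluster 6 and at 2.38 to 4.68 in clusters 3, 4, 7 and 8, and their part in these differences was not tested. Leukocyte markers were at 0.211 in cluster 6 and 0.134 to 0.220 in the other 4. Of its 661 cells, 416 came from the first run and 245 from the second.

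Among the other Egfl7 clusters, cluster 3 had most Atf3, at 0.424, against 0.0826 to 0.117 in clusters 4, 7 and 8. With the runs pooled it also had most Btg2 (0.614), Nr4a2 (0.464) and Ier5 (0.316) of these 4. In the second run cluster 8 was above cluster 3 in Nr4a2, at 0.5445 against 0.461, and in Ier5, at 0.4195 against 0.338. The intervals of the 2 clusters overlap there for both genes. Cebpb was at 0.0111 in cluster 3 (0.00675 to 0.0171) and 0.0153 in cluster 8 (0.00839 to 0.0257). It was at 0.0463 in cluster 7 and 0.162 in cluster 4. Clusters 3 and 8 thus shared a low level of Cebpb, with overlapping intervals, while Atf3 was at 0.424 and 0.117 in them. Cluster 3 also had the lowest summed endothelial markers of these 4 clusters, at 15.5 against 22.7 to 35.3. Its cardiomyocyte markers were the highest, at 1.84 against 0.768 to 1.23. Ttn made up 1.81 of the latter, and Tnnt2 was at 0.0299, within the 0.0182 to 0.0427 of the other 3. Xirp2, among its leading genes, encodes an actin-binding protein of striated muscle. The part of muscle transcripts in the levels of the early genes was not tested. In cluster 10 Nfe2l2 was at 3.09, Cebpb at 0.548 and Btg2 at 0.851. No UMI of Atf3 or Cebpb was found in cluster 9, and an exact interval allows up to 0.0666 for either gene there.

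The 2 fibroblast clusters differed in Nr4a2, at 0.270 in cluster 1 and 0.0981 in cluster 2, a ratio of 0.363 (0.276 to 0.470). In the first run this ratio was 0.323, and in the second, with 79 cells in cluster 2, it was 0.702 (0.357 to 1.28). Txnip was higher in cluster 2, at 1.35 against 0.836, by 1.61 times in all cells, 1.71 times in the first run and 1.07 times in the second. Cebpb was higher there too, at 0.130 against 0.0822. These 2 of 8 were at least 1.5 times higher in cluster 2, against 10.5% of 2330 genes, and 1 of 8 was lower, against 10.9%. Atf3 and Ier5 were under 0.04 in both clusters.

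The second barcode run had higher levels of several members in every cell group. The background of the comparison is low, since 8.03% of 2191 genes in fibroblasts, 7.07% of 2404 in endothelial cells and 12.3% of 1277 in Ptprc cells were at least 1.5 times higher in the second run. Of the members with 50 UMIs or more in a group, 3 of 7 were higher in fibroblasts (Btg2, Cebpb and Nfe2l2), 3 of 8 in endothelial cells (Btg2, Cebpb and Mcl1) and 4 of 6 in Ptprc cells (Btg2, Cebpb, Ier5 and Nfe2l2). Of these 10 calls, 5 remained without the cells that held at least 4 UMIs of Atf3, Btg2, Nr4a2 or Cebpb, namely Cebpb in all 3 groups, Nfe2l2 in fibroblasts and Btg2 in Ptprc cells. None was lower by 1.5 times in any of the groups, against 13.9%, 14.1% and 10.6% of genes. The labels do not say what the runs are, so library, genotype, treatment and preparation cannot be told apart here.

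Cebpb differed most. In endothelial cells it was at 0.0334 in the first run (0.0282 to 0.0393) and 0.346 in the second (0.311 to 0.384), a ratio of 10.4 (8.51 to 12.6). In fibroblasts it was at 0.0656 and 0.317, a ratio of 4.84 (3.54 to 6.56), and in Ptprc cells at 0.197 and 1.69, a ratio of 8.60 (5.83 to 13.0). Within clusters of at least 100 cells in each run the ratio ranged from 2.90 in cluster 3, where the interval of 0.824 to 8.39 includes 1, to 22.0 in cluster 6. Leukocyte markers, here with Ptprc among them, were at 0.570 in the first run and 1.05 in the second in endothelial cells. In fibroblasts they were at 1.02 and 0.928. Without the cells that held any leukocyte marker or Il1b UMI, the Cebpb ratio was 10.9 in endothelial cells (8.89 to 13.5) and 4.98 in fibroblasts (3.57 to 6.88).

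Btg2 was 1.97 times higher in the second run in fibroblasts (1.49 to 2.58), 1.89 times in endothelial cells (1.73 to 2.06) and 3.84 times in Ptprc cells (2.93 to 5.05). Mcl1 was 1.55 times higher in endothelial cells (1.49 to 1.60), and in cluster 6 it was at 3.29 and 6.67, a ratio of 2.03. In the other Egfl7 clusters the Mcl1 ratio was 1.20 to 1.40. Nr4a2 was 5.22 times higher in Ptprc cells (2.57 to 11.3), from 12 and 28 UMIs, which is under the minimum of 50 and so outside the count, and 1.05 times in fibroblasts (0.760 to 1.43).

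Atf3 did not share this direction in cluster 6, where it was at 1.33 in the first run (1.21 to 1.45) and 0.540 in the second (0.446 to 0.649), a ratio of 0.408 (0.330 to 0.5004). In clusters 4, 7 and 8 it was higher in the second run, by 1.84, 2.24 and 3.47 times, and in cluster 3 the ratio was 1.19 (0.942 to 1.48). Ier5 and Nfe2l2 were also lower in the second run within cluster 6, at ratios of 0.733 (0.596 to 0.897) and 0.819 (0.734 to 0.912). Over all endothelial cells the Atf3 ratio was 1.28, and with cluster 6 left out it was at least 1.5. The 10 ribosomal protein genes were higher in the second run as well, at 4.47 and 9.42 in endothelial cells, 1.68 and 2.96 in fibroblasts and 2.65 and 5.39 in Ptprc cells, and their part in these differences was not tested.

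**Figure D4:**
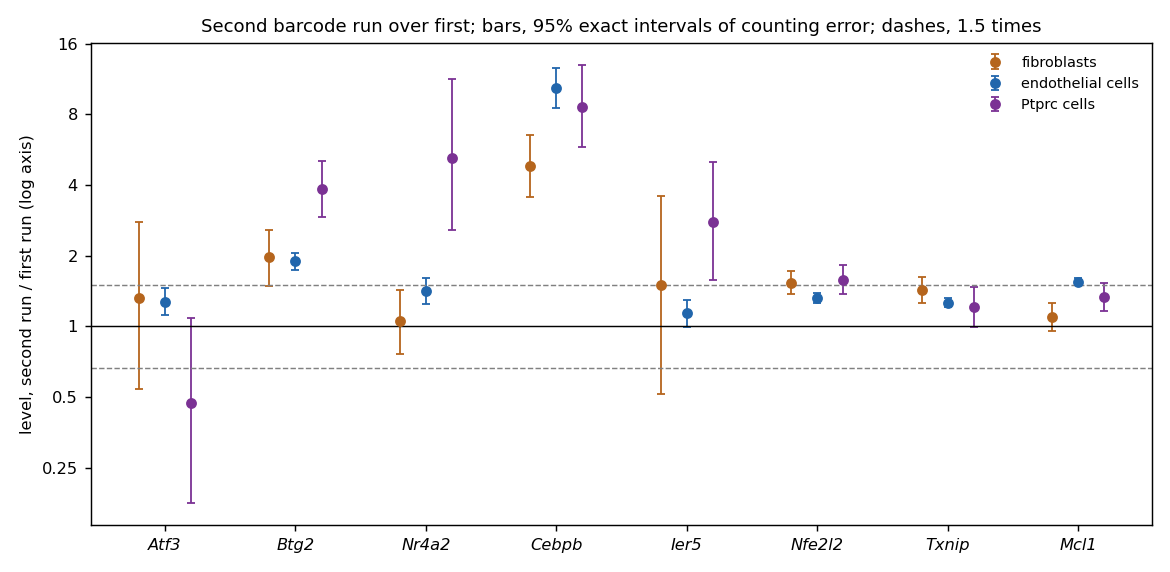
Ratio of the second barcode run over the first (log axis) for each gene in fibroblasts, endothelial cells and Ptprc cells, with 95% exact intervals of counting error and dashes at 1.5 times either way. The 3 Cebpb points lie between 4.84 and 10.4, and the Btg2 points between 1.89 and 3.84.

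By depth, few members set shallow cells apart. Between cells of under 2000 UMIs and cells of at least 5000 UMIs, Txnip was at least 1.5 times higher in shallow fibroblasts, 1 of 6 members with enough UMIs against 22.1% of 2119 genes, and Btg2 was lower, against 28.6%. In endothelial cells no member of 8 was higher, against 13.6% of 2305 genes, and Cebpb was lower, from 2 UMIs in the shallow cells, against 19.5%. In Ptprc cells Nfe2l2 was higher, 1 of 5 against 17.8% of 1068 genes, and Btg2 and Cebpb were lower, from 3 UMIs and 1 UMI, against 32.1%. Only 92 fibroblasts, 563 endothelial cells and 54 Ptprc cells were so shallow. Btg2 was not found in these 92 fibroblasts, for which an exact interval allows up to 0.249, above the 0.128 to 0.198 of the deeper ones.

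The deep end held clearer differences. In endothelial cells Atf3 was at 0.216 under 2000 UMIs, 0.132 from 2000 to under 5000, 0.188 from 5000 to under 10000 and 0.412 in the 1021 cells of at least 10000. The ratio of the last over the second of these bins was 3.13 (2.62 to 3.75), at 3.06 in the first run and 2.80 in the second. The same ratio was 1.61 for Nr4a2 and 1.62 for Ier5 in endothelial cells with the runs pooled, and 1.55 and 1.695 in the first run. In the second run these ratios were 1.25 (0.796 to 2.04) and 1.20 (0.742 to 2.05), and both intervals include 1. In fibroblasts Nr4a2 was at 0.121 from 2000 to under 5000 UMIs and 0.280 from 10000, a ratio of 2.31 (1.64 to 3.31), which was 2.56 in the first run and 0.956 in the second. Txnip was lower in deeper fibroblasts, from 1.95 (1.31 to 2.81) under 2000 UMIs through 1.16 and 0.954 to 0.723 (0.653 to 0.798), while in endothelial cells it stayed between 2.05 and 2.29. Mcl1 in fibroblasts was likewise at 1.35 in the shallowest bin and 0.884 in the deepest.

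For Cebpb the pooled and the within-run directions differed. Endothelial cells of at least 10000 UMIs had 1.37 times the level of those of 2000 to under 5000 with the runs pooled (1.03 to 1.83), but 0.402 times in the first run (0.204 to 0.743) and 0.568 times in the second (0.391 to 0.841). The median UMIs of endothelial cells were 5106 in the first run and 7295 in the second.

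A small number of cells held much of the transcripts of the early genes. The 164 cells richest in a gene, 1% of all cells, held 47.3% of the UMIs of Atf3, 46.8% of Cebpb, 27.2% of Nr4a2, 25.4% of Ier5 and 21.9% of Btg2. For Txnip, Nfe2l2 and Mcl1 they held 10.6%, 9.57% and 7.85%, as these genes were found in 47.9%, 43.5% and 60.5% of all cells. Single cells reached 50 UMIs of Btg2, 45 of Atf3, 35 of Cebpb and 28 of Nr4a2. Ier5 did not exceed 7 UMIs in any cell. Cebpb was found in 4.23% of cells and Atf3 in 5.96%, which limits how many cells can share their UMIs.

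**Figure D5:**
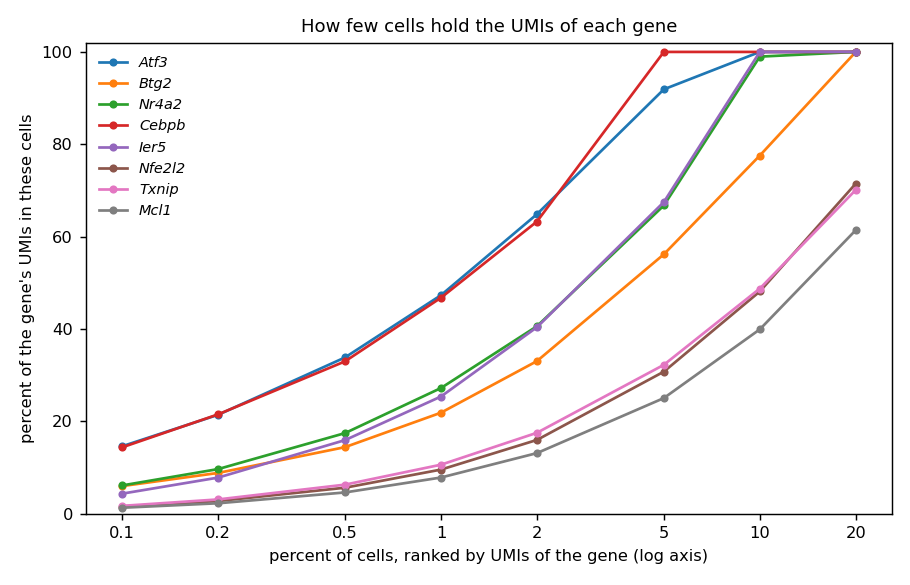
Percent of the UMIs of each gene held by the cells richest in it, against the percent of all cells on a log axis. At 1% of cells the curves of Atf3 and Cebpb are near 47%, while Nfe2l2, Txnip and Mcl1 are near 8% to 11%.

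With each cell thinned to 2000 UMIs, the variance over the mean in endothelial cells was 1.98 for Atf3, and 5.08% of genes had a higher value, with a median of 1.12 over genes. Nr4a2 stood out in fibroblasts, at 1.79 (6.66% of genes higher), and Cebpb and Btg2 in Ptprc cells, at 2.12 and 1.996 (8.61% and 10.2% higher). For Ier5 this ratio was 1.10 in endothelial cells and 0.998 in fibroblasts, both below the median over genes, and 1.34 in Ptprc cells, above their median of 1.21.

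Cells with at least 4 UMIs of a gene were then described. The 99 such cells of Atf3 comprised 56 endothelial cells and 43 remaining cells, with no fibroblast and no Ptprc cell among them. Cluster 6 held 43 of them, 6.51% of its cells, and cluster 3 held 41. Of the 122 cells of Btg2, 50 were in cluster 6 and 25 in cluster 3. Nr4a2 had another distribution, with 35 of 84 cells in fibroblast cluster 1 and 23 in cluster 3. The 29 cells of Cebpb all came from the second run, and 17 of them were endothelial cells and 9 Ptprc cells.

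Other genes were compared in these cells and in the rest, with at least 5000 UMIs on both sides. The rest spans all cell groups and clusters, fibroblasts included, and no ratio was taken within 1 group. Ier5, for example, was at 0.0196 in all fibroblasts, 0.255 in all endothelial cells and 0.791 in cluster 6. The part of cell group and cluster in the ratios that follow was not tested. The 88 cells with high Atf3 had Ier5 at 4.45 times (3.48 to 5.62), Btg2 at 4.33 times and Nr4a2 at 2.95 times the level of the rest, while Txnip was at 1.38 times. Within the runs the Ier5 ratio was 4.29 in the first and 4.55 in the second, and that of Btg2 3.89 and 4.43. Sele, the adhesion molecule E-selectin, was at 5.98 and 6.131 times the level of the rest. Other genes depended on the run. Xirp2 was at 11.3 times in the first run and 1.75 times in the second (0.560 to 4.15), while Ptgs2, the inducible cyclooxygenase, was at 0.798 times (0.258 to 1.87) and 16.3 times.

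The 26 cells with high Cebpb were all of the second run and were set against the 1588 other cells of that run. They had Il1b, the inflammatory cytokine, at 114.3 times, Fcer1g at 24.6 times, Ctss at 11.2 times, Btg2 at 5.68 times and Ptprc at 4.301 times the level of these. They also had Egfl7 at 1.62 times (1.39 to 1.88). These levels are summed over a set that mixes endothelial cells and Ptprc cells. Whether single cells of the set held both leukocyte and endothelial transcripts was not examined. The cells with high Nr4a2 differed between the runs. In the 58 of the first run Xirp2 was at 10.3 times the level of the rest. No Il1b UMI was found in them, and the interval of its ratio, 0 to 4.855, includes 1. In the 21 of the second run Il1b was at 38.9 times and Cebpb at 6.44 times. No Xirp2 UMI was found in these 21, and the interval of its ratio, 0 to 1.18, includes 1 as well. The part of joint capture of different cells under 1 barcode in these sets was not tested.

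Detection of several members in the same cell was rarest in fibroblasts and most frequent in Ptprc cells. Such shares also depend on how many cells hold each single gene, and no other set of genes was counted beside them. Whether they exceed what the single shares alone would give was not tested. At 2000 UMIs, at least 3 of the 8 genes were found in 1.70% of fibroblasts (1.27 to 2.23), 8.46% of endothelial cells (7.88 to 9.08) and 16.6% of Ptprc cells (13.1 to 20.5). At least 2 of Atf3, Btg2, Nr4a2, Cebpb and Ier5 were found in 0.425%, 2.23% and 4.33%. In cluster 6, 31.5% of cells (28.0 to 35.2) held at least 3 of the 8, against 10.4% in cluster 3 and 4.91% to 6.64% in clusters 4, 7 and 8. The fibroblast clusters 1 and 2 were at 1.69% and 2.19% and cluster 10 at 13.8%.

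Some pairs of early genes were found in the same endothelial cells. Btg2 was found in 14.3% of cells with Atf3 (10.1 to 19.4) and 7.18% of those without (6.63 to 7.76). Ier5 was found in 7.98% of cells with Atf3 against 4.29% without, and in 8.88% of those with Nr4a2 against 4.20% without. Cebpb was found in 3.23% of cells with Btg2 (1.98 to 4.94) against 1.22% without, but in 1.26% with Atf3 (0.261 to 3.64) against 1.37% without. Between Nfe2l2 and Mcl1 the shares were 43.2% and 42.4%. Cells differ in cluster and run as well, so such pairs describe the pooled cells only.

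Across 16 points, each a cluster within a barcode run of at least 100 cells, the log2 levels of Atf3 and Ier5 had a Pearson correlation of 0.90, and both had 0.85 with Txnip. Cebpb stood apart, at 0.10 with Ier5, 0.12 with Atf3 and 0.16 with Nr4a2, but 0.68 with Nfe2l2 and 0.62 with Btg2. The points share 2 runs and the clusters, and the correlation describes these points only. Among 1956 genes, those most like Atf3 over these points were Uhmk1 (0.929), S100a10 (0.925) and Tagln2 (0.914), and those most like Ier5 were S100a10 (0.930), Slc30a1 (0.926) and Sdc4 (0.916). Those most like Btg2 were Skil (0.869), Arpc2 (0.866) and Tmem185b (0.858), and those most like Nr4a2 were Ttbk2 (0.891), Ciart (0.853) and Stk35 (0.827). For Cebpb they were Rbm39 (0.832), Tlr2 (0.765) and Hat1 (0.764), for Nfe2l2 Serinc3 (0.955), Ctsz (0.903) and Mfsd1 (0.899), for Txnip Serf2 (0.940), Set (0.933) and Rps3a1 (0.927), and for Mcl1 Caprin1 (0.907), Cds2 (0.896) and F11r (0.874).

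The related genes in the matrix did not all have their highest level where the members did. Of 40 listed immediate-early and dissociation genes, 9 were in the matrix. Ptp4a1 and Thbs1 were at least 1.5 times above both other groups in fibroblasts, Dusp2, Ptgs2 and Id1 in endothelial cells, and Rgs2 and Il1b in Ptprc cells. Thbs1, which encodes the matrix protein thrombospondin-1, was at 1.67 in fibroblasts and 0.202 in endothelial cells. Dusp2, a phosphatase of MAP kinases, was at 0.00239 in fibroblasts and 0.110 in endothelial cells, and Id1, a target of BMP signalling, at 0.169 and 1.53. Il1b was at 2.16 in Ptprc cells and 0.0119 in endothelial cells.

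Of 19 genes of NRF2 and redox control, 5 were in the matrix. Slc7a11, the cystine transporter that NRF2 induces, was highest in fibroblasts, at 1.38 against 0.0348 in endothelial cells and 0.399 in Ptprc cells, whereas Nfe2l2 itself was lowest in fibroblasts. Cat, which encodes catalase, was highest in Ptprc cells, at 0.618, and Srxn1, Prdx6 and Cul3 were not 1.5 times above both others in any group. Of 26 genes of the unfolded protein and heat shock response, 10 were in the matrix. The endoplasmic reticulum chaperone Hspa5 was at 4.35 in endothelial cells, 1.37 in fibroblasts and 2.31 in Ptprc cells, and Pdia3 and Trib3 were also highest in endothelial cells. Atf6, a sensor of the same response, was highest in Ptprc cells, at 3.24, and Chac1 had under 50 UMIs.

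In the BCL2 family, 5 of 14 listed genes were in the matrix besides Mcl1. The apoptosis inducers Bcl2l11 and Bmf were highest in Ptprc cells, at 0.683 and 0.161. Bcl2, which like Mcl1 protects cells, was at 2.78 in fibroblasts, 0.820 in endothelial cells and 3.99 in Ptprc cells, so the level of Bcl2 was higher in fibroblasts than in endothelial cells and that of Mcl1 lower. Of 10 listed thioredoxin and arrestin genes, 2 were in the matrix. Arrdc1, an arrestin of the family of Txnip, was highest in Ptprc cells, at 0.395 against 0.120 in endothelial cells and 0.0474 in fibroblasts, and Txndc9 was at 0.454 to 0.490 in the 3 groups.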

How the data were processed

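The single-cell experiment of the study digested valves with collagenase and elastase, and the labels name a 10x Genomics 3′ kit. Per the submitters' processing notes, the authors used Cell Ranger 7.1.0 and mm10, and per the paper they filtered and normalized cells in Seurat 4.3.0. Whether reads were counted by strand is not given in the sources used here. The authors deposited natural logs: LogNormalize divides a UMI count by the cell total, multiplies by 10000, adds 1 and takes the log. Harmony 0.1.1, run by the authors on principal components, leaves them unchanged. The study also describes single nuclei, and the matrix does not say which barcodes are which. Of the listed genes, 1 with 11958 empty values was left out.

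By inverting the log, the UMI counts and totals per cell were recovered as whole numbers within 0.02, in 100% of cells. As the matrix is pooled, no count model was fitted and no test was run. Levels carry exact Poisson intervals, ratios exact conditional binomial intervals and shares exact binomial intervals, all at 95%, for counting error only. A ratio was called at 1.5 times, for genes with at least 50 UMIs over the cells compared. Shares at a fixed depth used cells thinned to 2000 UMIs, which left out 92 fibroblasts, 563 endothelial cells and 54 Ptprc cells. Clusters used 2000 variable genes, of which 30 members and listed stress genes were kept out, 50 principal components, 15 neighbours and Leiden resolution 0.5 (scanpy 1.11.5, igraph 0.11.9). No doublet caller was run. Cells with both fibroblast genes and Egfl7 were kept apart.

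All 8 members are named. Genes of 5 related lists are named where 1 cell group stood at least 1.5 times above both others, and 3 genes of most like pattern are named for each member (Pearson correlation of log2 levels plus 0.1, genes with at least 500 UMIs). The members and lists were chosen with earlier results of these data known. The steps were tested on 4000 simulated cells over 3264 genes, with a 2-fold difference in 200 genes between fibroblast profiles. This difference was recovered at a median of 2.00, and 96.0% of intervals held it. The share describes the simulated counts only. In real cells thinned to 2000 UMIs, the variance over the mean of members ran from 0.998 (Ier5, fibroblasts) to 2.12 (Cebpb, Ptprc cells). How often the intervals hold under such spread between cells was not tested. Promoter windows are from RefSeq on GRCm38.p6. Python 3.11.15, numpy 2.4.6, scipy 1.17.1 and matplotlib 3.10.9 were used. The alternatives were 9 planned settings of groups, cells, runs and scale, and 2 chosen after the data were seen, when the counts of members lower in Ptprc cells and the within-run values of cells rich in a gene were added too.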

Additional observations from a re-analysis of the deposited data

How the results depend on the processing

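The count of 5 members higher in endothelial cells than in fibroblasts was the same under all 11 alternatives, with the same genes. The count higher in Ptprc cells than in fibroblasts was 7, and 8 in the second run alone, where Nr4a2 joined. The count higher in Ptprc cells than in endothelial cells was 3, and 2 in the first run alone, without Btg2, and 4 by thinned shares, with Atf3. The count higher in fibroblasts than in endothelial cells was 0 and became 1, Cebpb, in the first run alone. Of 21 pairs of gene and cell group, 10 differed by 1.5 times between the runs. With the cells left out that held at least 4 UMIs of Atf3, Btg2, Nr4a2 or Cebpb, an alternative chosen after seeing the data, 5 of 20 pairs did, namely Cebpb in all 3 groups, Nfe2l2 in fibroblasts and Btg2 in Ptprc cells. The cause was not tested, beyond the fewer cells. Between shallow and deep cells 6 of 19 pairs differed, and 5 of 18 in the first run alone. The share of endothelial cells with at least 3 members, 8.46%, was 6.86% without cluster 6, 7.31% in the first run alone, 14.7% in the second run alone and 8.43% with another random draw, all chosen after seeing the data. Of 88 single ratios in each comparison, 61 for endothelial cells over fibroblasts, 63 for Ptprc cells over fibroblasts and 56 for Ptprc cells over endothelial cells stayed within their counting interval. Of those past 1.5 times either way none changed direction, and 87, 85 and 78 of the 88 stayed above, within or below 1.5 times as in the pooled data. Counts of members lower by 1.5 times in Ptprc cells, added after seeing the data, were 0. Against fibroblasts this became 1, Nr4a2, by clusters and in the first run. Against endothelial cells it became 2 by clusters (Atf3 and Nr4a2) and in the first run (Nr4a2 and Ier5), and 1 in the second run (Atf3), by the mean over cells, by thinned shares and without the cells of at least 4 UMIs (each Nr4a2). With a minimum of 200 UMIs, 18 shares of all genes past 1.5 times changed by -10.96 to -0.300 percentage points. Among them, 8.03% of genes higher in the second run in fibroblasts became 5.12%, 13.9% lower became 8.86%, 14.1% lower in endothelial cells became 8.72%, and 32.1% lower in shallow Ptprc cells became 21.2%. By thinned shares in place of levels, Ier5 in endothelial cells over fibroblasts was 22.4 in place of 13.0 and Atf3 4.12 in place of 7.78. No paired analysis was possible because the matrix is pooled and its barcodes carry no replicate number. Levels of Atf3, Cebpb and Ier5 in Ptprc and in shallow cells rest on few UMIs.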

Other observations

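Values of some genes that are no members, chosen from a longer set after they were seen, are added for the barcode runs, as the second over the first. The Il1b ratio was 13.1 in fibroblasts (4.17 to 44.8), 9.87 in endothelial cells (5.66 to 17.9) and 8.15 in Ptprc cells (6.60 to 10.1). The Ptgs2 ratio was 4.77 in endothelial cells (4.16 to 5.47) and 1.09 in fibroblasts (0.656 to 1.72). The ratio of Prg4, the lubricin gene of cluster 1, was 0.367 in fibroblasts (0.345 to 0.389). That of Npas2 was 0.0174 in fibroblasts (0.00472 to 0.0445), 0.116 in endothelial cells (0.0842 to 0.156) and 2.24 in Ptprc cells (0.835 to 5.98). Per2 was higher in the second run, at 3.93 in fibroblasts (3.45 to 4.48), 2.73 in endothelial cells (2.55 to 2.93) and 2.03 in Ptprc cells (1.28 to 3.20). The cause of these differences was not tested.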
